A study of Mus musculus with 10 samples.

Results

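The effect of the Nfib genotype over both tissues was read from RNA sequencing of small cell lung cancer grown in mice, a neuroendocrine disease known for early spread. All 5 RPR2;Nfibf/f libraries, called Nfib-floxed here, were set against all 5 RPR2 libraries, with tissue as a covariate, so all 10 libraries of the series entered. The Nfib-floxed libraries came from 3 lung tumors (mice JHK997, JHK1398 and JHK1399) and 2 liver metastases (JHK1398 and JHK1399). The RPR2 libraries came from 3 lung tumors (JHK1373, JHK1394 and JHK1548) and 2 liver metastases (JHK1373 and JHK1394). Values per library are given in these orders throughout. Both genotypes carry the RPR2 deletions, which remove the tumor suppressors Rb1, Trp53 and Rbl2 in the lung. Nfib-floxed mice carry conditional alleles of Nfib in addition. The sources used here do not give the Cre driver, the floxed part of Nfib, or the age and sex of the mice. Each library is 1 tumor, macrodissected when the mouse reached morbidity, so host tissue can be part of a sample.

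Levels are in TPM, a unit that corrects for gene length and library total. Of 35288 gene identifiers, 15503 averaged at least 1 TPM across the libraries and were tested. A gene is said to separate the genotypes when its TPM values did not overlap between the 3 Nfib-floxed and 3 RPR2 lung tumors, nor between the 2 Nfib-floxed and 2 RPR2 metastases, with the same direction in both tissues. By this rule 656 genes (4.23% of those tested) separated the genotypes, 269 higher (1.74%) and 387 lower (2.5%) in Nfib-floxed tumors. The split depended on scaling, with 434 higher and 377 lower after quantile normalization and 394 higher and 317 lower after median centring.

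NFIB, the protein of Nfib, belongs to the nuclear factor I transcription factors, which bind DNA as a dimer at sites built on the letters TTGGC and act on chromatin accessibility. In small cell lung cancer the NFIB locus is often gained, and in mouse models high Nfib goes with metastasis and with neuronal gene programs. Tumors of the RPR2 kind lack the retinoblastoma family brake on E2F factors, which drive genes of DNA synthesis and the cell cycle.

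Both genotypes expressed neuroendocrine markers. Chga, the gene of the granule protein chromogranin A, stood at 235 to 863 TPM in Nfib-floxed libraries and 126 to 775 TPM in RPR2 libraries. Insm1, a neuroendocrine transcription factor gene, stood at 102 to 339 TPM in Nfib-floxed libraries and 164 to 258 TPM in RPR2 libraries. Libraries of the same group correlated at 0.84 to 0.949 (Pearson, log2(TPM + 1), tested genes). Each Nfib-floxed library of JHK1398 had its highest correlation with an RPR2 lung tumor, and so did the lung tumor of JHK997. For JHK997 it was 0.907, with JHK1373, against 0.904 and 0.905 with the lung tumor and metastasis of JHK1399. The metastasis of JHK1399 correlated at 0.916 with that of JHK1398 and at 0.914 with the RPR2 lung tumor of JHK1373. The lung tumor of JHK1398 correlated at 0.863 and 0.84 with the other Nfib-floxed lung tumors, and at 0.860, 0.886 and 0.887 with the RPR2 lung tumors. The metastasis of JHK1398 correlated at 0.916 with the other Nfib-floxed metastasis, and at 0.933, 0.837 and 0.912 with the RPR2 lung tumors. Transcripts of the mitochondrial genome made up 12.9% of the lung tumor of JHK1398 and 4.32% to 7.13% of every other library. Summed levels of 4 genes of the Y chromosome were 309 TPM in the Nfib-floxed lung tumor of JHK997, 132 and 18.03 TPM in the RPR2 lung tumor and metastasis of JHK1394, and 1.43 to 4.03 TPM in the other 7 libraries. Whether the unlike libraries of JHK1394 come from 1 mouse, as labelled, was not tested, and the mouse effect in the fits and the means per mouse rest on these labels. The hepatocyte genes listed summed to 580 and 4253 TPM in Nfib-floxed metastases, against 13220 and 14750 TPM in RPR2 metastases. In lung tumors club cell genes summed to 2050 to 56140 TPM in Nfib-floxed and 9390 to 60960 TPM in RPR2 tumors, highest in JHK1398 and JHK1394. In such bulk samples, fewer cells of a type and less RNA per cell cannot be told apart.

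Nfib itself (ENSMUSG00000008575, chromosome 4, 82290173 to 82705750, minus strand, build GRCm38) had 38.6, 38.0 and 26.5 TPM in Nfib-floxed lung tumors, against 85.3, 28.3 and 118 TPM in RPR2 lung tumors. In metastases it had 46.1 and 41.3 TPM in Nfib-floxed mice, against 62.8 and 643 TPM in RPR2 mice. The metastases did not overlap, while the RPR2 lung tumor of JHK1394 lay among the Nfib-floxed ones. Averaged over the libraries of a mouse, Nfib was 38.2 ± 4.12 TPM in Nfib-floxed mice and 176 ± 140 TPM in RPR2 mice (SD, n = 3 each). A two-sided exact permutation test over mice gave p = 0.1, the smallest that its 20 arrangements allow. The additive limma fit gave a log2 difference of -1.44 ± 0.55 (SE, adjusted p = 0.336). It was -0.81 without the RPR2 metastasis of JHK1394, and -1.86 to -0.81 when any library or mouse was left out. Since the floxed part is unknown, a level summed over the gene checks the genotype labels little. The other family members did not separate the genotypes. The fitted log2 differences were 0.01 ± 0.43 for Nfia, -0.17 ± 0.23 for Nfic and -1.16 ± 0.81 for Nfix (smallest adjusted p by limma among them 0.551). Those of Nfia, Nfic and Nfix turned direction under alternatives given in the closing section.

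No gene passed an adjusted p of 0.05 in the additive limma fit (0% of 15503 tested, higher and lower alike), which took tissue as a term and mouse as a random effect. At an unadjusted p under 0.05 stood 2017 genes, 871 higher and 1146 lower in Nfib-floxed tumors. The lowest adjusted p, 0.104, was shared by 10 genes. These 10 were Neurod4, Kcnj3, Lmnb1 and the predicted gene Gm13577, all lower, and Atg9b, Cd59a, Klk1b22, Flt3l, Ints6l and Rgs11, all higher. The count depended on 1 mouse. Without the 2 libraries of JHK1398 the same fit called 1063 genes, 661 higher (4.26%) and 402 lower (2.59%), of which 252 had separated the genotypes over all 10 libraries. Without its lung tumor alone it called 63 genes, 50 higher (0.323%) and 13 lower (0.0839%), and without its metastasis alone none. Another reading of the same data, the mean of the genotype differences of both tissues in a model of the 4 groups, called 91 genes, 65 higher (0.419%) and 26 lower (0.168%). Of those 91, 61 of the higher and 23 of the lower had also passed in the liver contrast of that model. The test of a difference between tissues was passed by 38 of the higher and 9 of the lower. Only 20 of the higher and 14 of the lower separated the genotypes in both tissues. Without the RPR2 lung tumor of JHK1373 the additive fit called 2 genes, without that of JHK1394 it called 1, and without both libraries of JHK1394 it called 3. The p-values measure the spread between these tumors, some of which share a mouse.

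Genes that set the genotypes apart were counted in each tissue, and the 2 shares cannot be compared directly, since the group sizes differ. Ranges did not overlap at 14.5% of genes in lung tumors (3 against 3 libraries; 5.66% higher and 8.81% lower in Nfib-floxed) and at 45.8% in metastases (2 against 2; 23.8% higher and 22% lower), where fewer values make overlap rarer. Leaving out a library also makes overlap rarer, and without the lung tumor of JHK1398 the genes apart in both tissues were 963 higher and 633 lower. Of the genes apart in both tissues, 302 (1.95%) pointed in opposite directions, against the 656 that shared one. All 5 Nfib-floxed values lay on 1 side of all 5 RPR2 values, regardless of tissue, at 208 genes (1.34%), 65 higher (0.419%) and 143 lower (0.922%). Of the 656 genes, 557 had an unadjusted limma p under 0.05. The median log2 difference was 0.91 over the 269 higher genes and -0.74 over the 387 lower genes, against -0.05 over all genes tested, and 115 genes in each direction differed by at least 1. The rule and the fit use the same values, so these figures describe the genes and are no independent support. Separation can be narrow. Just inside the rule lay the ubiquitin ligase gene Rfwd3, with 80.6 TPM in the metastasis of JHK1399 and 80.7 TPM in the RPR2 metastasis of JHK1373. Just outside it lay Ddit3, a stress response gene, listed at 0 in all Nfib-floxed libraries and in 2 RPR2 lung tumors, those of JHK1373 and JHK1394. In 8 genes the gap between the genotypes was at least 1 log2 unit in each tissue, namely Neurod4, Kcnj3 and Gm13577, lower, and Cd59a, Klk1b22, Rgs11, Atg9b and Wnk4, higher.

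**Figure D1:**
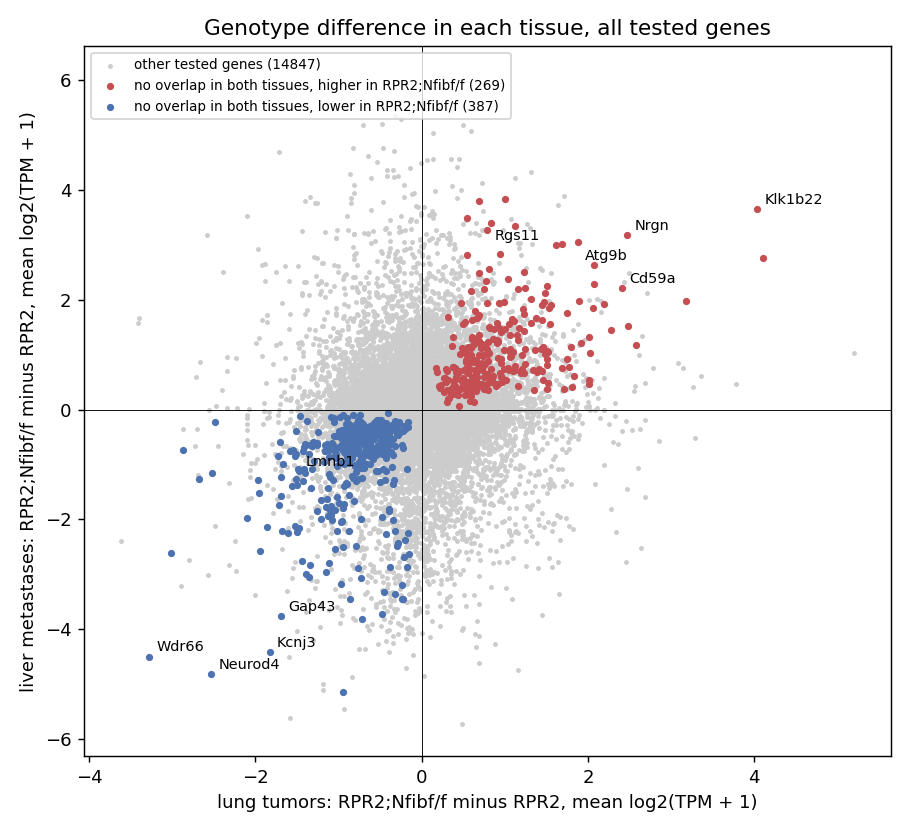
Difference of mean log2(TPM + 1), Nfib-floxed (RPR2;Nfibf/f) minus RPR2, in lung tumors (x axis, 3 against 3) and in liver metastases (y axis, 2 against 2) for the 15503 tested genes. Red and blue points are the 269 and 387 genes whose values did not overlap in either tissue, and Neurod4, Kcnj3 and Klk1b22 lie far from 0 on both axes.

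Among the lower genes, Neurod4 (chromosome 10, 130268152 to 130280240, minus strand), a neurogenic basic helix-loop-helix transcription factor, came first by p. It had 0.325, 0.0770 and 0 TPM in Nfib-floxed lung tumors, against 7.04, 2.53 and 8.71 TPM in RPR2 lung tumors. The Nfib-floxed metastases had 0.134 and 0.0941 TPM, against 24.2 and 38.3 TPM in RPR2 metastases. Every Nfib-floxed library was low and every RPR2 library was higher, with the metastases highest. Its log2 difference was -3.46 ± 0.46 (limma, SE, adjusted p = 0.104, 0.00526 to 0.688 over the alternatives). It was the gene called with a pseudocount of 0.1. Of the 25 tested neurogenic and lineage transcription factors, Neurod4 was the 1 that separated the genotypes (4%, against 4.23% of all genes).

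The promoter of Neurod4 is shown because this gene had the smallest p, and it serves as the comparison for promoters with motifs given further on. It is RefSeq sequence of GRCm38.p6 from 250 bases before to 50 after an annotated start, chr10:130280205-130280504, minus strand. It holds neither the NFI monomer site TTGGCA nor either E2F motif on either strand, so no letter is in capitals.
Neurod4: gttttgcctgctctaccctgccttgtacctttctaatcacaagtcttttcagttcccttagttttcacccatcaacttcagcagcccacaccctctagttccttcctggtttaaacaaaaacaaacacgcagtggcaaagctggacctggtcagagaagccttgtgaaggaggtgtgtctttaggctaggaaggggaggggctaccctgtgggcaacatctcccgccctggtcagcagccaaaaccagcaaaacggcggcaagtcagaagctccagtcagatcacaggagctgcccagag

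Kcnj3 (chromosome 2), which encodes a G protein gated potassium channel subunit, was also low in every Nfib-floxed library. It had 0.35, 1.23 and 0.0503 TPM in Nfib-floxed lung tumors, against 4.24, 4.36 and 4.04 TPM in RPR2 lung tumors. Levels in Nfib-floxed metastases were 0.109 and 0.144 TPM, against 20.6 and 26.0 TPM in RPR2 metastases. No Nfib-floxed value reached the lowest RPR2 value. The log2 difference over both tissues was -2.88 ± 0.46 (limma, SE, adjusted p = 0.104). It was -1.83 in lung tumors and -4.42 in metastases, and this interaction did not pass (adjusted p = 0.126 by limma). Kcnj3 was the 1 of 50 tested ion channel and receptor genes that separated the genotypes (2%, against 4.23% of all genes).

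Over both tissues, genes of axon growth and neuronal migration lay lower in Nfib-floxed tumors more often than higher. By the list median this held against all genes in metastases and not in lung tumors. Of 57 tested members, 6 (10.5%) separated the genotypes, all lower, against 2.5% of all genes, namely Gap43, Efna5, Epha3, Ephb2, Marcksl1 and Rtn4r. No member passed the test. In all, 39 members were below 0, with a median log2 difference of -0.50 (-0.08 in lung tumors and -0.73 in metastases). Over all tested genes the medians were -0.10 in lung tumors and 0 in metastases. With median centring, 2 members separated lower and 1 higher, and the list median stayed at -0.47. The mean of both tissue differences called 3 members lower (Gap43, Epha5 and Lingo1) and none higher. The additive fit called Nrcam higher, and none lower, with array weights (a weight for each library) and without the lung tumor of JHK1398. Without the lung tumors of both JHK1394 and JHK1398 it called no member. Without both libraries of JHK1398, 4 members rose by the same fit (Map1b, Nrcam, Cntn2 and Unc5a), against 4.26% of all genes, and 4 fell (Gap43, Marcksl1, Ephb2 and Efna5), against 2.59%. Gap43, a growth cone protein gene, had 1.30, 0.217 and 0.361 TPM in Nfib-floxed lung tumors, against 2.98, 4.72 and 4.72 TPM in RPR2 lung tumors. In the liver, Nfib-floxed metastases had 4.01 and 0.195 TPM, against 30.3 and 34.1 TPM in RPR2 metastases. The metastasis of JHK1398 was the highest of the Nfib-floxed libraries and lay within the range of RPR2 lung tumors. Its log2 difference was -2.54 ± 0.48 (limma, SE, adjusted p = 0.2).

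Marcksl1, a MARCKS family gene of actin and membrane dynamics, had 77.2, 63.3 and 69.1 TPM in Nfib-floxed lung tumors, against 238, 79.5 and 181 TPM in RPR2 lung tumors. Among liver metastases, Nfib-floxed ones had 272 and 116 TPM and RPR2 ones 413 and 426 TPM. The gap in lung tumors was narrow, since the RPR2 tumor of JHK1394 lay close to the Nfib-floxed ones. Ephb2, an ephrin receptor gene, had 25.1, 13.2 and 16.7 TPM in Nfib-floxed lung tumors, against 91.3, 38.5 and 29.0 TPM in RPR2 lung tumors. Nfib-floxed metastases had 51.2 and 26.2 TPM, against 57.3 and 73.4 TPM in RPR2 metastases. As with Gap43, the metastasis of JHK1398 was the highest Nfib-floxed library. Ephb2 had a log2 difference of -1.15 ± 0.33 and Epha3 of -1.16 ± 0.43 (limma, SE, adjusted p = 0.259 and 0.32). Epha3 was below 0.6 TPM in every lung tumor and reached 7.97 and 2.85 TPM in RPR2 metastases, against 0.0637 and 0.117 TPM in Nfib-floxed metastases.

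Lmnb1 (chromosome 18, 56707813 to 56753424), which encodes lamin B1 of the nuclear lamina, had 40.2, 33.3 and 45.5 TPM in Nfib-floxed lung tumors, against 136, 76.4 and 134 TPM in RPR2 lung tumors. For metastases the values were 137 and 92.0 TPM in Nfib-floxed mice, against 223 and 270 TPM in RPR2 mice. Metastases were higher than lung tumors in both genotypes, and the genotypes did not overlap within a tissue. The log2 difference was -1.33 ± 0.22 (limma, SE, adjusted p = 0.104), -1.48 in lung tumors and -1.12 in metastases. In the list of nuclear lamina and chromatin genes, 3 of 29 members separated (10.3%, against 4.23% of all genes), in both directions, Lmnb1 lower and the nesprin gene Syne1 and the methyltransferase gene Kmt2d higher.

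Genes of the cell cycle lay lower almost throughout in Nfib-floxed tumors. Of 42 tested members, 41 had a log2 difference below 0 and 7 (16.7%) separated the genotypes, all lower, against 2.5% of all genes. These 7 were Rrm2, Kif11, Ccna2, Mcm2, Mcm5, Mcm6 and Cdt1, and no member passed the test. The list median was -0.52, with -0.76 in lung tumors and -0.11 in metastases. The count below 0 was 41 under each of the 3 other scalings, and 38 without the lung tumor of JHK1398, with a median of -0.38. The mean of both tissue differences called no member. The additive fit called Rrm2 lower with array weights and without the lung tumor of JHK1398. Without the lung tumors of both JHK1394 and JHK1398 it called Birc5 and Rrm2 lower. Without both libraries of JHK1398, 6 of the 42 fell in Nfib-floxed tumors by the same fit (Kif11, Mcm2, Mcm3, Mcm5, Mcm6 and Rrm2), against 2.59% of all genes, and none rose.

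Rrm2 (chromosome 12), the ribonucleotide reductase subunit that supplies DNA synthesis, had 29.1, 14.3 and 44.9 TPM in Nfib-floxed lung tumors, against 101, 54.1 and 133 TPM in RPR2 lung tumors. In metastases it had 97.7 and 58.1 TPM in Nfib-floxed mice, against 221 and 294 TPM in RPR2 mice. Its values were apart in each tissue, and the Nfib-floxed metastases overlapped with RPR2 lung tumors. Its log2 difference was -1.72 ± 0.32 (limma, SE, adjusted p = 0.188). E2f2 (chromosome 4), which encodes an activating E2F factor, had 32.0, 16.6 and 34.0 TPM in Nfib-floxed lung tumors, against 93.2, 43.0 and 77.2 TPM in RPR2 lung tumors. The Nfib-floxed metastases had 93.5 and 59.7 TPM, against 240 and 170 TPM in RPR2 metastases. The genotypes did not overlap within a tissue, and the lung tumor of JHK1398 was the lowest of all 10 libraries in both genes. The log2 difference of E2f2 was -1.37 ± 0.28 (limma, SE, adjusted p = 0.204).

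Kif11, a mitotic spindle motor gene on chromosome 19, had 25.0, 13.0 and 27.3 TPM in Nfib-floxed lung tumors, against 95.5, 33.6 and 97.6 TPM in RPR2 lung tumors. Levels in Nfib-floxed metastases were 114 and 34.4 TPM, against 126 and 125 TPM in RPR2 metastases. The metastasis of JHK1398 came close to the RPR2 metastases. Mcm5, a subunit of the replicative helicase, had 75.5, 36.6 and 104 TPM in Nfib-floxed lung tumors, against 147, 126 and 136 TPM in RPR2 lung tumors. In the liver, Nfib-floxed metastases had 99.4 and 94.2 TPM, against 143 and 224 TPM in RPR2 metastases. All 5 Nfib-floxed values of Mcm5 lay under all 5 RPR2 values. The log2 differences were -1.39 ± 0.38 for Kif11 and -0.97 ± 0.26 for Mcm5 (limma, SE, adjusted p = 0.257 and 0.247). Ccna2, the gene of cyclin A2, differed by -0.91 ± 0.31 (adjusted p = 0.3), and it overlaps Exosc9 on the other strand, so their reads may not be told apart.

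The promoter of Mcm5 is shown because it is a member of the cell cycle group with an E2F motif, in capitals. The motifs searched were TTTGGCGC and TTTCCCGC on both strands, chosen after the values had been seen. Neither contains the NFI site TTGGCA, though the first holds its core TTGGC. The match in Mcm5, GCGCCAAA, is the first of them on the other strand and begins at -149 from the start. The window is chr8:75109259-75109558, plus strand, from the same RefSeq table.
Mcm5: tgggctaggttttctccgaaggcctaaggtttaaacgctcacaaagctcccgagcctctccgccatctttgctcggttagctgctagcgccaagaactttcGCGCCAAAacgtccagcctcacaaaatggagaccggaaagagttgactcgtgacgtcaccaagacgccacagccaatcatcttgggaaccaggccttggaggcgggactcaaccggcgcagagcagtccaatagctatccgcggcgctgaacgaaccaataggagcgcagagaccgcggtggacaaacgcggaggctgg
Of the separating genes with a promoter in the table, 2 of 202 higher ones (0.99%) and 18 of 293 lower ones (6.14%) held either motif, against 361 of 11268 tested genes (3.2%). Among the separating cell cycle genes it was 3 of 6 (Cdt1, Mcm5 and Mcm6), and 6 of 34 over the list. A match is a description of the letters and not of a bound site.

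**Figure D2:**
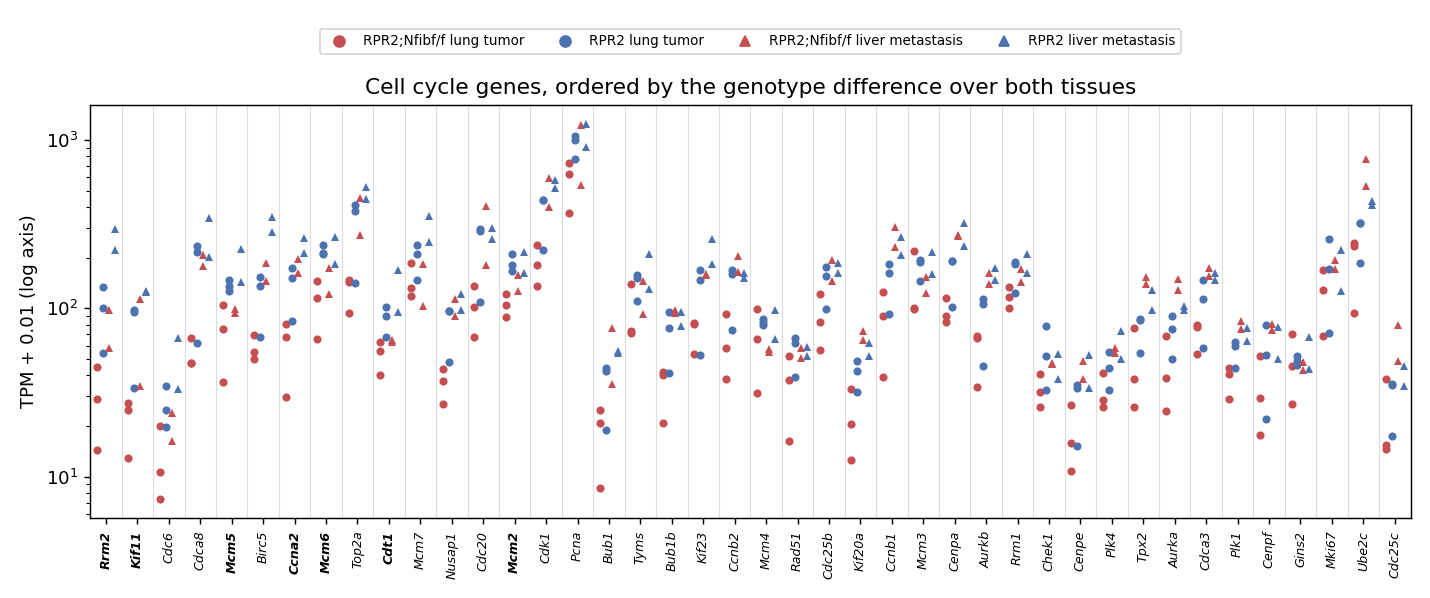
TPM + 0.01 (log axis) of the 42 cell cycle genes in every library, ordered from the lowest genotype difference over both tissues (left) to the highest; circles are lung tumors and triangles liver metastases, red Nfib-floxed and blue RPR2. Bold names are the 7 genes whose values did not overlap in either tissue, and for most genes the red circles lie under the blue ones and triangles overlap more often.

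In the RB and p53 list, 2 of 29 members separated (6.9%, against 4.23% of all genes), 1 in each direction. E2f2 lay lower and Ccnd3, the gene of cyclin D3, which overlaps Bysl on the other strand, higher. Ccnd3 had 96.9, 81.0 and 69.9 TPM in Nfib-floxed lung tumors, against 54.6, 61.9 and 36.2 TPM in RPR2 lung tumors. Among liver metastases, Nfib-floxed ones had 42.7 and 58.1 TPM and RPR2 ones 17.3 and 28.9 TPM. The genotypes were apart in each tissue, in the direction opposite to most of the list. Its log2 difference was 0.87 ± 0.23 (limma, SE, adjusted p = 0.247), while 25 of the 29 members were below 0. The genes deleted in both genotypes did not separate, with log2 differences of -0.25 ± 0.30 for Rb1, 0.30 ± 0.25 for Trp53 and -0.11 ± 0.47 for Rbl2 (limma, SE, smallest adjusted p 0.615), each of which turned direction under some alternative.

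Further genes low in Nfib-floxed tumors had varied roles. Wdr66, a gene of motile cilia, had 2.41, 3.58 and 1.28 TPM in Nfib-floxed lung tumors, against 17.2, 6.52 and 237 TPM in RPR2 lung tumors. For metastases the values were 2.68 and 2.49 TPM in Nfib-floxed mice, against 46.9 and 138 TPM in RPR2 mice. The RPR2 libraries ranged widely while the Nfib-floxed ones stayed low, and the log2 difference of -3.73 ± 0.75 was the most negative of the separating genes (limma, SE, adjusted p = 0.204). Slc40a1, the gene of the iron exporter ferroportin, had 6.24, 3.68 and 5.92 TPM in Nfib-floxed lung tumors, against 24.1, 11.5 and 24.2 TPM in RPR2 lung tumors. In metastases it had 5.17 and 9.80 TPM in Nfib-floxed mice, against 27.8 and 19.3 TPM in RPR2 mice. All 5 Nfib-floxed values lay under all 5 RPR2 values, with a log2 difference of -1.64 ± 0.30 (limma, SE, adjusted p = 0.188). Slc40a1 also marks Kupffer cells, whose 8 listed genes, Slc40a1 among them, were all below 0. They summed to 14.5 to 21.1 TPM in Nfib-floxed and 35.0 to 54.7 TPM in RPR2 lung tumors. Slc40a1 itself made up 24.1, 11.5 and 24.2 TPM of the RPR2 lung sums of 35.0, 47.4 and 54.7 TPM. The sums are therefore not independent of this gene. In metastases the 8 genes summed to 16.95 and 26.8 TPM in Nfib-floxed and 173 and 117 TPM in RPR2 mice, and their part in the result was not tested.

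The septin gene Sept9 had 13.4 to 19.9 TPM in Nfib-floxed lung tumors and 29.9 to 42.9 TPM in RPR2 lung tumors. The Nfib-floxed metastases had 13.4 and 19.6 TPM, against 47.0 and 43.2 TPM in RPR2 metastases. The Nfib-floxed values covered the same range in both tissues, under all RPR2 values, and the log2 difference was -1.25 ± 0.22 (limma, SE, adjusted p = 0.129). Sord, the sorbitol dehydrogenase gene, had 22.7, 14.9 and 14.2 TPM in Nfib-floxed lung tumors, against 29.4, 32.3 and 56.5 TPM in RPR2 lung tumors. Nfib-floxed metastases had 10.3 and 23.4 TPM, against 95.2 and 139 TPM in RPR2 metastases. The RPR2 metastases stood above all other libraries. Prkd3, a protein kinase D gene, had 8.67, 8.71 and 3.25 TPM in Nfib-floxed lung tumors, against 19.1, 16.8 and 17.2 TPM in RPR2 lung tumors. Nfib-floxed metastases had 2.64 and 9.82 TPM, against 35.5 and 53.5 TPM in RPR2 metastases. It showed the same order of the groups as Sord. Vstm2a, a gene of a secreted immunoglobulin domain protein, differed by -2.03 ± 0.42, Prkd3 by -1.95 ± 0.40 and Sord by -1.80 ± 0.36 (limma, SE, adjusted p = 0.204 each). Pgpep1, a peptidase gene, differed by -1.36 ± 0.27 with the same adjusted p. Of the 53 named genes, all that separated the genotypes, these 4 included, kept their direction under every alternative run for them. Values apart in each tissue largely fix that direction in advance, so this is no independent support.

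The higher genes were led by Atg9b (chromosome 5, 24384181 to 24392143, minus strand), an autophagy gene. It had 41.7, 17.97 and 23.7 TPM in Nfib-floxed lung tumors, against 6.86, 7.42 and 5.13 TPM in RPR2 lung tumors. Levels in Nfib-floxed metastases were 15.8 and 18.9 TPM, against 1.97 and 0.626 TPM in RPR2 metastases. All 5 Nfib-floxed values lay above all 5 RPR2 values. The log2 difference was 2.34 ± 0.33 (limma, SE, adjusted p = 0.104). Atg9b overlaps Nos3 on the other strand, and whether the libraries kept strand is not given, so the 2 genes cannot be told apart with certainty.

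Cd59a (chromosome 2, 104095801 to 104115354), which encodes a membrane inhibitor of complement, had 366, 104 and 146 TPM in Nfib-floxed lung tumors, against 23.8, 42.3 and 34.4 TPM in RPR2 lung tumors. In the liver, Nfib-floxed metastases had 37.7 and 85.8 TPM, against 13.7 and 9.65 TPM in RPR2 metastases. The genotypes were far apart in each tissue, and only the metastasis of JHK1398 fell within the range of RPR2 lung tumors. Its log2 difference was 2.31 ± 0.35 (limma, SE, adjusted p = 0.104), with 2.41 in lung tumors and 2.21 in metastases. Klk1b22, a kallikrein gene of a family of near-identical copies, whose level is therefore uncertain, had 50.6, 61.5 and 21.8 TPM in Nfib-floxed lung tumors, against 8.47, 0.566 and 0.121 TPM in RPR2 lung tumors. Among liver metastases, Nfib-floxed ones had 10.8 and 48.0 TPM and RPR2 ones 1.499 and 0.466 TPM. The RPR2 libraries were near 0 except the lung tumor of JHK1373. At 3.86 ± 0.59 its log2 difference was the most positive of the 656 genes (limma, SE, adjusted p = 0.104).

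Rgs11, a regulator of G protein signaling, had 122, 109 and 104 TPM in Nfib-floxed lung tumors, against 44.98, 33.2 and 29.8 TPM in RPR2 lung tumors. For metastases the values were 64.2 and 151 TPM in Nfib-floxed mice, against 6.43 and 19.9 TPM in RPR2 mice. All Nfib-floxed libraries were above all RPR2 libraries, by 2.17 ± 0.36 log2 units (limma, SE, adjusted p = 0.104). Flt3l, the gene of the cytokine FLT3 ligand, had 40.3, 45.6 and 46.0 TPM in Nfib-floxed lung tumors, against 20.4, 16.5 and 17 TPM in RPR2 lung tumors. In metastases it had 26.6 and 48.2 TPM in Nfib-floxed mice, against 6.30 and 7.51 TPM in RPR2 mice. It too was higher in every Nfib-floxed library, by 1.65 ± 0.25 log2 units (limma, SE, adjusted p = 0.104). Nrgn, the gene of the postsynaptic protein neurogranin, had 68.0, 49.5 and 99.1 TPM in Nfib-floxed lung tumors, against 34.3, 12.2 and 3.37 TPM in RPR2 lung tumors. The Nfib-floxed metastases had 41.0 and 27.4 TPM, against 2.73 and 2.88 TPM in RPR2 metastases. The RPR2 lung tumors spread over a wide range below the Nfib-floxed ones, and the log2 difference was 2.74 ± 0.46 (limma, SE, adjusted p = 0.122).

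Ints6l (chromosome X, 56454857 to 56507843), a relative of a subunit of the Integrator complex, had 306, 208 and 213 TPM in Nfib-floxed lung tumors, against 117, 80.0 and 111 TPM in RPR2 lung tumors. Levels in Nfib-floxed metastases were 119 and 198 TPM, against 37.3 and 54.2 TPM in RPR2 metastases. The log2 difference was 1.44 ± 0.23 (limma, SE, adjusted p = 0.104), and all 5 Nfib-floxed values lay above all 5 RPR2 values. Thbs3, a thrombospondin gene that overlaps Mtx1 on the other strand, had 21.6, 33.7 and 19.3 TPM in Nfib-floxed lung tumors, against 7.79, 10.3 and 5.36 TPM in RPR2 lung tumors. In the liver, Nfib-floxed metastases had 7.67 and 16.4 TPM, against 2.04 and 2.54 TPM in RPR2 metastases. The metastasis of JHK1398 was the lowest Nfib-floxed library and lay among RPR2 lung tumors, and the log2 difference was 1.69 ± 0.29 (limma, SE, adjusted p = 0.129). The remaining higher genes of this rank were Rtl5, Rab4b, Sept4 and Uckl1, with log2 differences of 0.93 to 1.49 and adjusted p of 0.129 to 0.204. Rgs11, Rtl5 and Uckl1 overlap Arhgdig, Nhsl2 and Uckl1os on the other strand and may share reads with them. Flt3l, Rab4b, Sept4 and Uckl1 overlap Gm45713, Gm21983, Gm11492 and Zfp512b on the same strand, with the same limit. Rab4b encodes a small GTPase of endosomes and Uckl1 a uridine kinase relative.

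The promoters of Ints6l, Thbs3 and Rrm2 are shown because they are the ones among the 24 leading genes, where a promoter was matched, that hold the NFI monomer site TTGGCA, in capitals, with the first base at -47, -97 and -250 from the start. They lie at chrX:56454589-56454888, chr3:89214930-89215229 and chr12:24708004-24708303, all on the plus strand, and come from the same RefSeq table. Ints6l and Thbs3 lay higher and Rrm2 lower in Nfib-floxed tumors.
Ints6l: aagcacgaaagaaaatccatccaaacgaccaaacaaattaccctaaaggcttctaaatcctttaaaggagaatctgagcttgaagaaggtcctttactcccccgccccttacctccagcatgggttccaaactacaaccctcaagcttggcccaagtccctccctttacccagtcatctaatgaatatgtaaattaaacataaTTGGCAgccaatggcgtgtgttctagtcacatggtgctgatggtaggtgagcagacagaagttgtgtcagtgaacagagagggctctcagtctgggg
Thbs3: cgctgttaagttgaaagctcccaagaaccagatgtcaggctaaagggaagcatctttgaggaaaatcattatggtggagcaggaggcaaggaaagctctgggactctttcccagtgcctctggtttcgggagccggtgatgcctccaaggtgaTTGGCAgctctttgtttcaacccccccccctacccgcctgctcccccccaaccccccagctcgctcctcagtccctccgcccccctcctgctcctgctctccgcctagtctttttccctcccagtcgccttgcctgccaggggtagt
Rrm2: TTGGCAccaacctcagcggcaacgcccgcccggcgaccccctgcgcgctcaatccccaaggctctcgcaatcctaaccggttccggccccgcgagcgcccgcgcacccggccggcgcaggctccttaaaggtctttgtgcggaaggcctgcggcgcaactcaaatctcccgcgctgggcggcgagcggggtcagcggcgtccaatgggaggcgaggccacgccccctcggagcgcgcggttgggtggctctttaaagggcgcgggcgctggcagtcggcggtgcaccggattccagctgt
Over both strands, the monomer site was in the promoters of 32 of 202 separating genes that lay higher (15.8%) and 33 of 293 that lay lower (11.3%), against 1571 of 11268 tested genes (13.9%). The NFI palindrome, TTGGC and its reverse complement around a 5 base spacer, which holds the monomer site when an A follows its first TTGGC, was in none of them and in 4 of the 11268. The shares of the separating genes lay on either side of that of all tested genes.

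**Figure D3:**
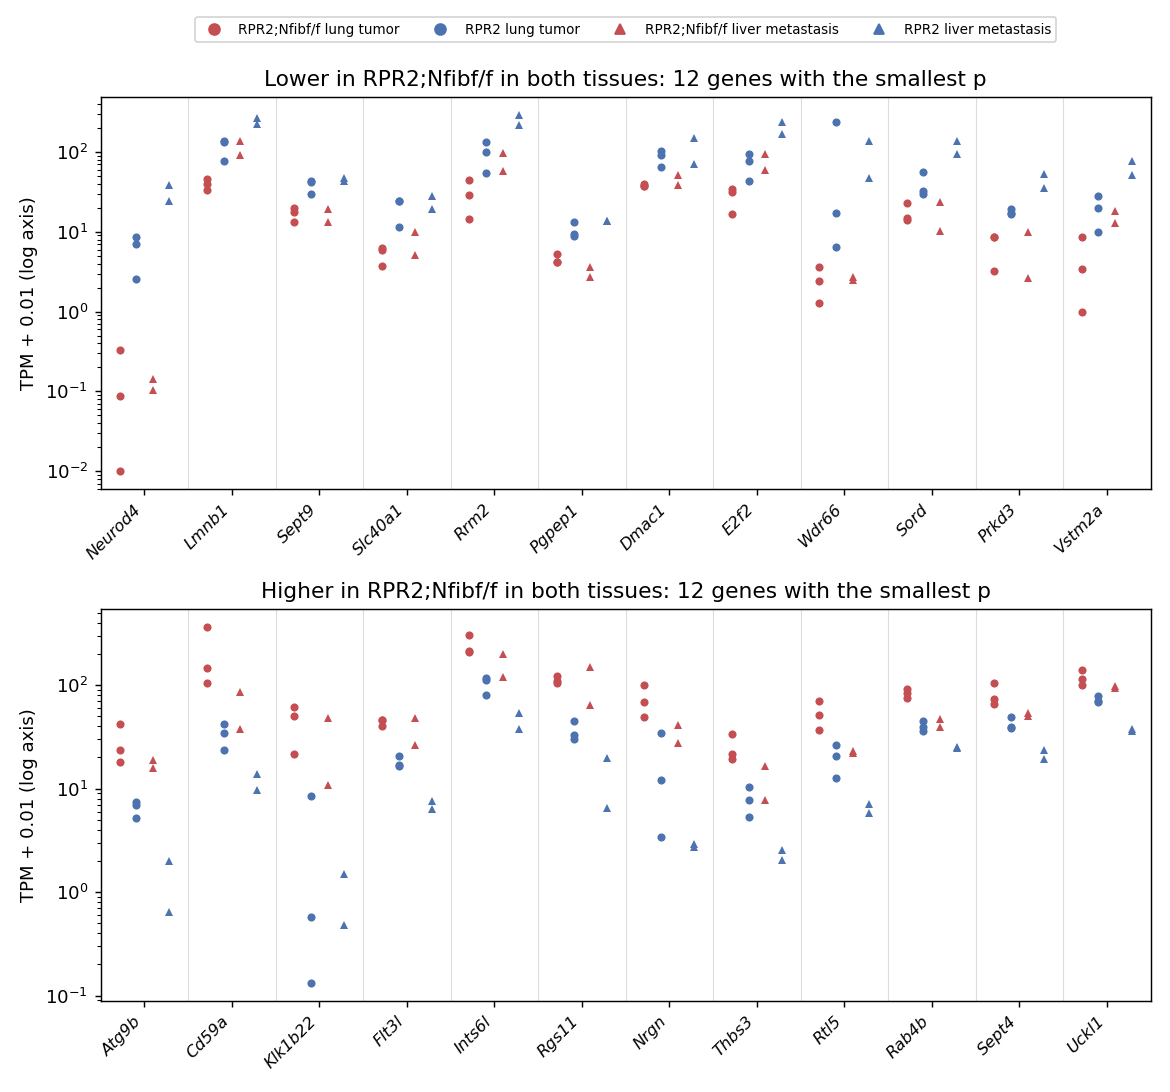
TPM + 0.01 (log axis) in every library of the 12 genes lower (upper panel) and the 12 genes higher (lower panel) in Nfib-floxed tumors in both tissues with the smallest p; circles are lung tumors, triangles liver metastases, red Nfib-floxed and blue RPR2. Within each tissue no red point overlaps with the blue ones, and none of the 24 genes passed the test over all genes.

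Neuroendocrine secretion genes lay higher in Nfib-floxed tumors. Of 43 tested members, 32 were above 0, with a median log2 difference of 0.53 (0.25 in lung tumors and 0.94 in metastases), and none passed. Resp18, a secretory granule protein gene, had 1802, 1777 and 1721 TPM in Nfib-floxed lung tumors, against 567, 1033 and 411 TPM in RPR2 lung tumors. Among liver metastases, Nfib-floxed ones had 197 and 893 TPM and RPR2 ones 112 and 68.4 TPM. The Nfib-floxed lung tumors were alike while the metastasis of JHK1398 lay near the RPR2 ones, and the log2 difference was 1.80 ± 0.39 (limma, SE, adjusted p = 0.216). In the other direction, Grp, the gene of gastrin-releasing peptide, was at 0.988 to 2.52 TPM in Nfib-floxed and 2.85 to 8.45 TPM in RPR2 lung tumors. For metastases the values were 1.89 and 0.154 TPM in Nfib-floxed mice, against 14.0 and 6.56 TPM in RPR2 mice. Resp18 and Grp were the 2 members that separated the genotypes (4.65%), 1 in each direction, close to the 4.23% of all genes. The mean of both tissue differences called no member. The additive fit called 2 higher with array weights and 1 higher without the lung tumor of JHK1398. Without the lung tumors of both JHK1394 and JHK1398 it also called 1 higher. None was called lower in these runs. Without both libraries of JHK1398, 11 of the 43 rose in Nfib-floxed tumors by the same fit, among them Chgb, Calca and Resp18, against 4.26% of all genes, and none fell.

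Genes of hypoxia and glycolysis lay higher too. Of 32 tested members, 28 were above 0, the median was 0.39 (0.10 in lung tumors and 1.11 in metastases), and none passed. The glycolytic enzyme genes Aldoa and Gpi1 separated the genotypes, 2 of 32 (6.25%) and both higher, against 1.74% higher among all genes. Aldoa had 1154, 761 and 942 TPM in Nfib-floxed lung tumors, against 597, 680 and 595 TPM in RPR2 lung tumors. In metastases it had 1439 and 811 TPM in Nfib-floxed mice, against 268 and 214 TPM in RPR2 mice. Aldoa overlaps Fam57b on the other strand. The gap was narrow in lung tumors and wide in metastases, though the interaction did not pass (adjusted p = 0.216 by limma). Of the list, the mean of both tissue differences called 2 members, Aldoa and Ankrd37, both higher. The additive fit called none with array weights, and Pfkl, Pdk1 and Bnip3 higher without the lung tumor of JHK1398. Without the lung tumors of both JHK1394 and JHK1398 it called the same 3. None was called lower in these runs. Without both libraries of JHK1398, 10 of the 32 rose by the same fit, among them Aldoa, Gpi1, Pfkl, Pdk1 and Bnip3, against 4.26% of all genes, and none fell. Gpi1 had 533, 405 and 358 TPM in Nfib-floxed lung tumors, against 239, 214 and 329 TPM in RPR2 lung tumors. Nfib-floxed metastases had 510 and 324 TPM, against 174 and 180 TPM in RPR2 metastases. The RPR2 lung tumor of JHK1548 lay closest to the Nfib-floxed range, and the log2 difference was 0.92 ± 0.21 (limma, SE, adjusted p = 0.228). The hepatocyte genes moved the other way, all 24 below 0 over both tissues with a median of -1.74 (-0.44 in lung tumors and -3.69 in metastases). Their part in these list values was not tested.

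Other lists had few or no separating genes. None of 40 epithelial genes separated the genotypes. Over both tissues 35 were above 0, with a median log2 difference of 0.98 (-0.45 in lung tumors and 2.65 in metastases), and none passed. The mean of both tissue differences called 10 of the 40 higher, Cdh1 and Esrp1 among them, against 0.419% of all genes, and none lower. The additive fit called none with array weights or without the lung tumor of JHK1398. Without both libraries of JHK1398 it called Grhl2 lower and none higher. In the interferon list, 2 of 35 separated (5.71%, against 4.23% of all genes), Irf1 higher (0.68 ± 0.24) and Ifit2 lower (-0.94 ± 0.24; limma, SE, adjusted p = 0.303 and 0.247). The matrix protease gene Mmp14 was the 1 of 18 mesenchymal genes to separate, lower (5.56%, against 4.23% of all genes). No member separated among the MYC network, antigen presentation, Notch, WNT, RAS exchange and growth factor receptor lists. Among the markers of other cell types, Tat (1 of 24 hepatocyte genes, 4.17%) and Slc40a1 (1 of 8 Kupffer cell genes, 12.5%) separated. So did Igfbp2 and Rtkn2 (2 of 9 alveolar type 1 cell genes, 22.2%) and Gzma (1 of 6 T and NK cell genes, 16.7%). All of these were lower, against 2.5% of all genes, and the lists are short. The other cell type lists had no separating gene. Macrophage and monocyte genes were all below 0, 14 of 14 with a median of -0.55, and summed to 672 to 1447 TPM in Nfib-floxed and 601 to 4845 TPM in RPR2 lung tumors. Their part in the results was not tested.

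The difference between tissues was tested for each gene as an interaction. In all, 96 genes passed (0.619%; 0.51% with a higher and 0.11% with a lower difference in metastases), and of the 656 separating genes 2 did, 1 higher and 1 lower. Among the 302 genes that were apart in opposite directions, 23 passed. Both sets were picked by their direction in each tissue, which shapes these counts, so nothing is read from them. Among the named genes the smallest interaction p belonged to Kcnj3, Aldoa and Epha3, and none of the named genes passed. By size, the tissue difference was largest in Nfix, at -3.76 ± 1.29 on the log2 scale (limma, SE, adjusted p = 0.301). Of the separating genes, 20 higher and 23 lower ones passed in the liver contrast of the model of the 4 groups, where 175 of all genes were higher (1.13%) and 141 lower (0.91%). Values apart in metastases were a condition of the rule, so these counts are no independent support. With the spread taken from the 4 metastases alone, no gene passed, and 2175 had an unadjusted limma p under 0.05. In the lung contrast none passed (0%), and 1230 had an unadjusted limma p under 0.05.

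Genes around Nfib on chromosome 4 lay lower in Nfib-floxed tumors. Within 10 megabases on each side, 31 of 34 tested genes had a log2 difference below 0, with a median of -0.70 (-0.70 in lung tumors and -0.81 in metastases). Over all tested genes 8470 of 15503 were below 0, with a median of -0.05. None of the 34 passed the test, with a smallest adjusted p of 0.204 by limma, while 13 were lower and 0 higher at an unadjusted p under 0.05. Among all 15503 genes 1146 were lower and 871 higher at that level. Of the 34, 2 separated the genotypes, both lower, against 2.5% lower among all genes. They were Dmac1, a gene of mitochondrial complex I assembly, and Plin2, a lipid droplet gene. Dmac1 had 39.5, 38.0 and 38.0 TPM in Nfib-floxed lung tumors, against 102, 64.5 and 92.0 TPM in RPR2 lung tumors. The Nfib-floxed metastases had 51.6 and 38.9 TPM, against 70.8 and 148 TPM in RPR2 metastases. The Nfib-floxed values were nearly the same in every tumor but the metastasis of JHK1398, while the RPR2 values varied. Its log2 difference was -1.14 ± 0.22 (limma, SE, adjusted p = 0.204). Plin2 had 41.1, 33.6 and 37.1 TPM in Nfib-floxed lung tumors, against 55.3, 165 and 48.7 TPM in RPR2 lung tumors. Nfib-floxed metastases had 14.7 and 28.6 TPM, against 139 and 70.6 TPM in RPR2 metastases. All 5 Nfib-floxed values lay under all 5 RPR2 values, by -1.52 ± 0.38 on the log2 scale (limma, SE, adjusted p = 0.237).

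The region was highest in 1 RPR2 library. Relative to the gene means over all libraries, its median in the RPR2 metastasis of JHK1394 was 1.35 log2 units above the library's median over all tested genes, and Nfib reached 643 TPM there. The region median was -0.14 in the RPR2 metastasis of JHK1373, against -0.18 and -0.53 in Nfib-floxed metastases. Psip1, a chromatin protein gene, had 2392 TPM in the metastasis of JHK1394 and 399 TPM in that of JHK1373. Nfib-floxed metastases had 468 and 412 TPM of Psip1. Mpdz, a scaffold protein gene, had 378 TPM in the metastasis of JHK1394 and 61.95 TPM in that of JHK1373, against 2.15 and 2.89 TPM in Nfib-floxed metastases. Without the metastasis of JHK1394, by ordinary least squares, 28 of 34 genes were below 0 with a median of -0.45, where all genes had 52.6% and -0.03. Without both libraries of JHK1398, 28 were below 0 with a median of -0.51, where all genes had 44.2% and 0.08. DNA copy number is not measured here, and its part in the result was not tested.

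**Figure D4:**
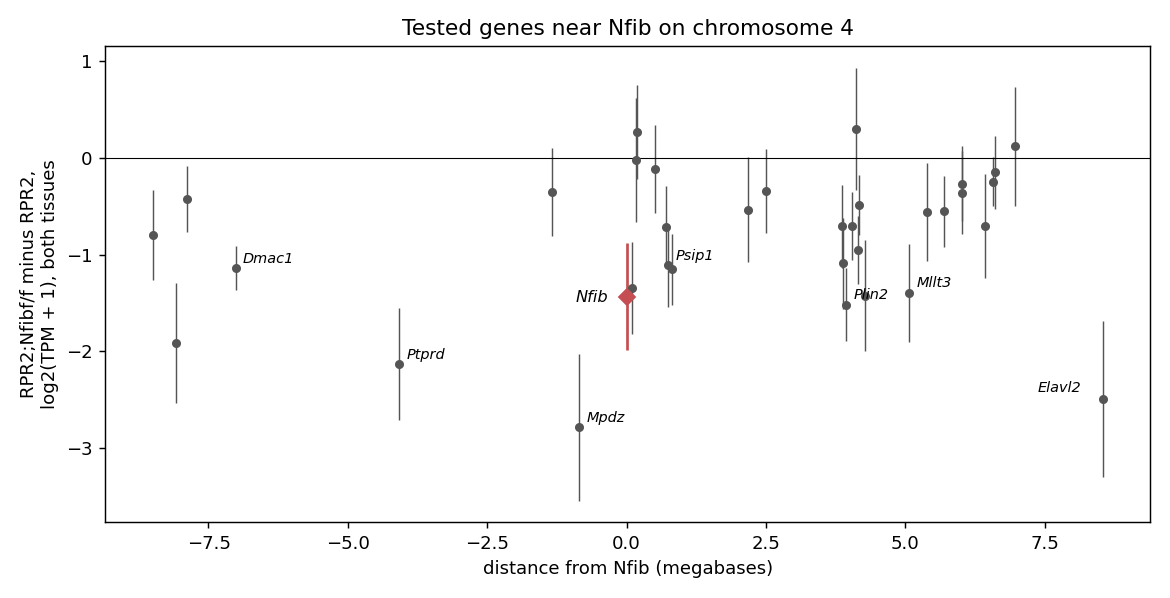
Log2 difference between genotypes over both tissues (points, with SE from limma as bars) of the 34 tested genes within 10 megabases of Nfib, against the distance from the ends of Nfib in megabases; the red diamond is Nfib. Most points lie below 0, and Dmac1 and Plin2 are the 2 that did not overlap in either tissue.

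The separating genes were unevenly spread over the chromosomes. Chromosome 19 held 43 of them among 511 tested genes (8.42%), all 43 lower in Nfib-floxed tumors. Over all tested genes 4.23% separated, and 2.5% did so lower. Of the tested genes of chromosome 19, 80.2% had a log2 difference below 0, with a median of -0.40. Over all tested genes 8470 of 15503 were below 0, with a median of -0.05. The median level of chromosome 19, relative to the gene means and to the library's median, varied between Nfib-floxed libraries. It was -0.31 and -0.27 in the lung tumors of JHK997 and JHK1399 and -0.58 in the metastasis of JHK1399. The libraries of JHK1398 had 0.19 and 0.21, against 0.12 to 0.24 in RPR2 libraries. The level of chromosome 19 was low in 3 of 5 Nfib-floxed libraries, from 2 of 3 mice. Without both libraries of JHK1399, 74% of its genes were below 0 by ordinary least squares, with a median of -0.29, where all genes had 61.3% and -0.13. Kif11 and Ifit2, named above, lie on this chromosome. On chromosomes 2 and 7 the higher genes were more numerous, 36 of 50 and 34 of 46, against 269 of the 656 separating genes in all. On chromosome X, 14 of 18 were higher, and the median level was 0.78 in the Nfib-floxed lung tumor of JHK1399.

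**Figure D5:**
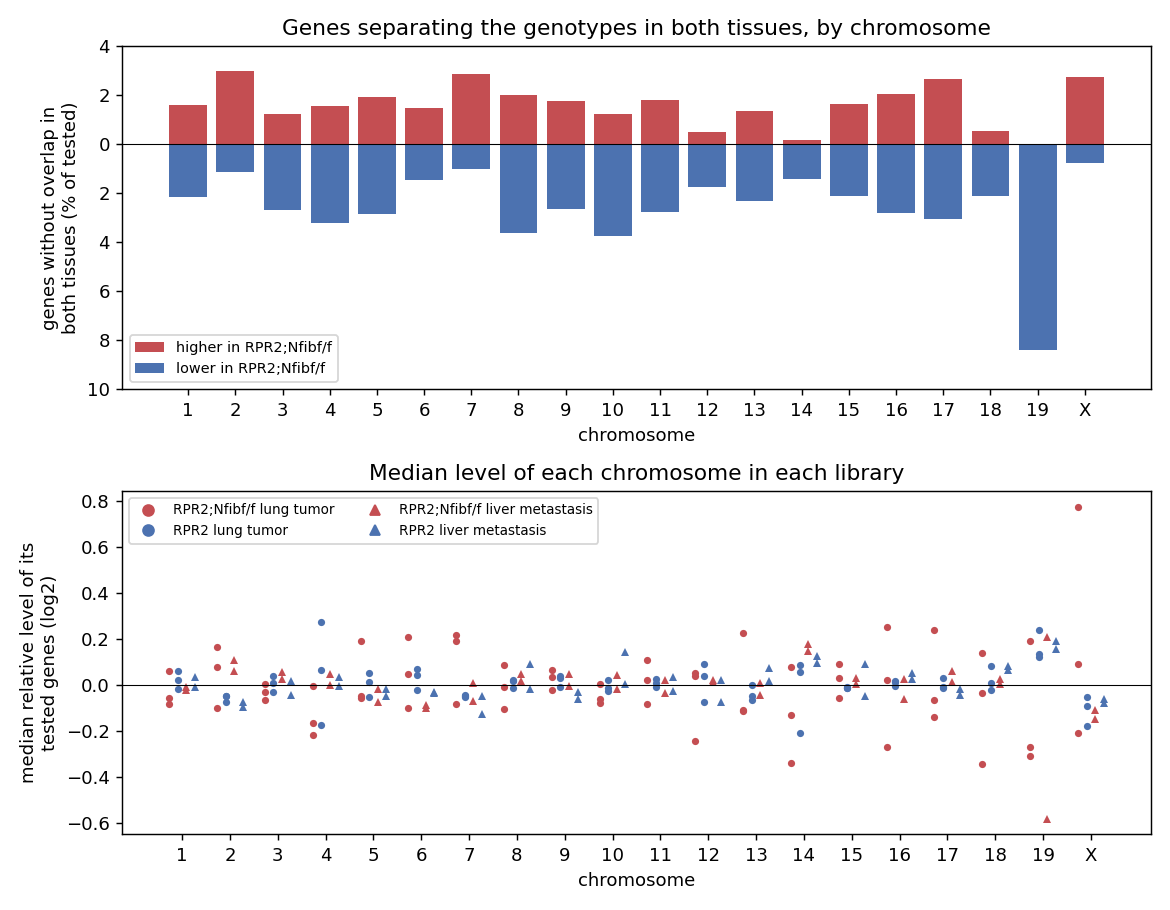
Upper panel: genes that separated the genotypes as a percent of the tested genes of each chromosome, higher above the line and lower below it. Lower panel: median relative log2 level of the tested genes of each chromosome in each library (circles lung tumors, triangles liver metastases, red Nfib-floxed, blue RPR2); on chromosome 19, 3 red points lie at -0.58 to -0.27 and the other 2 among the RPR2 libraries.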

How the data were processed

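RNA of 10 tumors from 6 mice was sequenced after polyA selection. The authors deposited 1 table of TPM, which sums to 1000000 in each library and keeps no read depth, so depth is unknown and counting error cannot be given. Salmon 0.12.0, bcl2fastq 2.20, R 4.1.0 and build GRCm38 are named in the submitters' processing notes. Strandedness and the authors' annotation were not given in the sources used here. Of 35288 identifiers, 35028 matched GENCODE M21.

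The 15503 genes averaging 1 TPM or more were tested on log2(TPM + 1), a scale that understates changes of low genes, with limma 3.58.1 (R 4.3.3, trended moderation), tissue as a term and mouse as a random effect by duplicateCorrelation (correlation -0.0736), with Benjamini-Hochberg adjustment and a threshold of 0.05. Contrasts per tissue and the interaction came from a model of the 4 groups. The fits were tested on simulated data. The mouse block comes from the labels, since 4 mice gave both tissues; deviations of their paired libraries correlated at -0.02 to 0.05. Python 3.11.15 with pandas 2.3.3 and scipy 1.17.1 was used for descriptions. Chromosome and region medians without a library came from ordinary least squares.

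Members and gene lists were chosen with earlier results of these data known. Named were 12 separating genes per direction averaging 5 TPM or more in the higher genotype of each tissue, by smallest p since none passed. Predicted genes were passed over. Added were the NFI family, the deleted genes, up to 4 separating members per list and 3 by interaction. Of the 53 named genes, 42 had a promoter in the RefSeq table. Others named were chosen after their values were seen. The 30 alternatives covered pseudocount, filters, scaling, blocks, models and leaving out libraries or mice. Each tumor is 1 library, and tumors of 1 mouse are not independent animals. Some genes on the lists are not reported here.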

Additional observations from a re-analysis of the deposited data

Results flagged for a closer look

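Among the 5 libraries of a genotype, 6 of 106 gene and group combinations held 1 library far from the rest by Dixon's test on log2(TPM + 1) for 5 values (critical value 0.71). Chance alone gives about 1 in 20. In Nfib-floxed libraries, Dmac1 was at 51.58 TPM in the metastasis of JHK1398, against 37.95 to 39.47 TPM in the others. Irf1, an interferon response factor gene, was at 40.58 TPM in the same metastasis, against 76.23 to 93.04 TPM in the others. Tat, a hepatocyte enzyme gene, was at 8.201 TPM in the metastasis of JHK1399, against 0.1505 to 0.8494 TPM in the others, and that library also held more hepatocyte transcripts (4253 TPM summed) than the other metastasis of its genotype (580 TPM). In RPR2 libraries, Sept9 was at 29.86 TPM in the lung tumor of JHK1548, against 41.71 to 47.01 TPM in the others. Kif11 was at 33.57 TPM in the lung tumor of JHK1394, against 95.49 to 125.9 TPM in the others, and Mcm5 was at 224.4 TPM in the metastasis of JHK1394, against 126.4 to 146.5 TPM in the others. None of the interaction tests of the named genes passed the threshold.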

How the results depend on the processing

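The additive limma fit called 0 genes with the mouse block and 0 with no replicate block (smallest adjusted p 0.104 and 0.151). It called 1 gene (Neurod4) with a pseudocount of 0.1, 3 with median centring (Atg9b, Cd59a and Ints6l), 55 with array weights, 91 as the mean of tissue effects and 79 without the lung tumors of JHK1394 and JHK1398. Leaving out a library or mouse gave 0 to 1063 calls, the most without mouse JHK1398. Separating genes numbered 434 higher after quantile normalization, 296 to 2054 higher and 457 to 1325 lower when a library or mouse was left out, and 1322 higher and 1026 lower without both lung tumors; fewer values make overlap rarer. Of 1582 values of named genes under 30 alternatives, 1442 kept direction and side of the threshold, 111 passed it newly and 29 changed sign. Most named genes were picked as separating, which largely fixes their direction, so the first count is no independent support. Nfia was -0.025 with a pseudocount of 0.1, -0.020 as the mean of tissue effects, -0.11 with array weights, -0.18 in metastases alone and -0.18 without both lung tumors; leaving out a library or mouse gave -0.58 to 0.59. Nfic was 0.028 with array weights and 0.0089 in lung tumors alone, and Nfix 0.34 there. In metastases alone Rb1 was 0.40 and Trp53 -0.13. Without both lung tumors Rb1 was 0.040 and Rbl2 0.26, and Rbl2 was 0.10 with array weights. Leaving out a library or mouse gave -0.40 to 0.055 for Nfic, -0.60 to 0.11 for Rb1 and -0.88 to 0.74 for Rbl2. The cause was not tested. Median log2 over all genes was -0.05, 0.09 without mouse JHK1398 and -0.16 without mouse JHK1399. Genes under about 1 TPM rest on few reads of unknown number, and 3 mice per genotype limit every comparison.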

Other observations

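Circadian clock genes, a list chosen after their values were seen, mostly had higher values in Nfib-floxed tumors. Of 17 tested, 13 had a log2 difference above 0, with a median of 0.43, and none passed the test. The genotypes were separated by 2 of the 17, both higher, against 1.74% higher among all genes, and since the list was picked on these values nothing is read from that count. Dbp, a clock output factor gene, had 128, 125 and 96.3 TPM in Nfib-floxed lung tumors, against 69.1, 60.7 and 52.3 TPM in RPR2 lung tumors. Levels in Nfib-floxed metastases were 49.2 and 106 TPM, against 19.9 and 16.5 TPM in RPR2 metastases. Per3, a period gene, had 92.4, 46.6 and 38.0 TPM in Nfib-floxed lung tumors, against 19.4, 20.4 and 30.3 TPM in RPR2 lung tumors. In the liver, Nfib-floxed metastases had 18.9 and 63.0 TPM, against 8.71 and 9.27 TPM in RPR2 metastases. Both genes were apart within each tissue, by 1.33 ± 0.26 log2 units for Dbp and 1.47 ± 0.35 for Per3 (limma, SE, adjusted p = 0.204 and 0.237). The sources used here do not give the hour of collection, and its part in the result was not tested.

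Wnk4, a kinase gene of ion transport, had 23.1, 24.9 and 32.6 TPM in Nfib-floxed lung tumors, against 8.68, 9.17 and 1.90 TPM in RPR2 lung tumors. Among liver metastases, Nfib-floxed ones had 3.11 and 16.7 TPM and RPR2 ones 0.525 and 0.983 TPM. The genotypes were apart in each tissue, though the metastasis of JHK1398 lay among RPR2 lung tumors. Gm13577, a predicted gene of no stated function, was listed at 0 in all 3 Nfib-floxed lung tumors, against 6.17, 4.42 and 5.71 TPM in RPR2 lung tumors. For metastases the values were 0.987 and 0.968 TPM in Nfib-floxed mice, against 4.42 and 3.14 TPM in RPR2 mice. Both genes were chosen after their values were seen.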
